A study of Mus musculus with 13 samples.

Results

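To follow the resident macrophages of the airspace in hyperoxic lung, 10 genes known from mouse alveolar macrophages were read gene by gene. They were Marco, Csf2rb, Pparg, Fabp4, Fabp5, Chil3, Ear1, Ear2, Plet1 and Krt79, and were taken by their exact symbols from a count table of 32544 rows. All 10 were in the table and all 10 were among the 12496 genes that passed the filter on low counts. In the lungs examined, 3 of the 10 fell in hyperoxia with no overlap between the groups (Ear1, Ear2 and Fabp5), Krt79 fell by a margin that depended on single libraries, and Chil3 rose once 1 unusual library was left out.

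The lungs came from WT C57BL/6J male mice, bought at 7 weeks of age, and no genetic change was made in either group. Normoxic mice (7 libraries) breathed 21% oxygen and hyperoxic mice (6 libraries) breathed 80% oxygen, both for 5 days. The lungs were perfused with cold DPBS, frozen and homogenized whole, and their RNA was read by Quant-seq, which sequences the 3′ ends of mRNAs. The labels do not say whether each library is 1 mouse, so the p-values measure the spread between these libraries. Total counts were between 1607111 and 4540288 per library, and 3 counts, used as a floor, equalled 0.656 to 1.84 CPM (counts scaled to a common library size). Floors and limits for a count of 0 cover counting error only, whereas the 95% intervals of log2 fold changes come from the edgeR fit and include the spread between libraries. The library hyperoxia 1 stood apart, with a mean correlation to the other libraries of 0.779, where each other library had 0.886 to 0.919. Its summed level of 13 epithelial markers was 780 CPM, against 5739 to 14448 CPM in the other hyperoxic libraries and 19825 to 67990 CPM in normoxia. Most of the normoxic sum was Scgb1a1, with 13447 to 51496 CPM in normoxia and 162 CPM in hyperoxia 1. In hyperoxia 1, Epcam (56.3 CPM) and Cdh1 (129.7 CPM) were within their normoxic ranges, while most of the other markers were below theirs. The results of the 10 genes are therefore given with it and without it where it changed a call, and counts over gene lists where it changed them.

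Alveolar macrophages are the long-lived phagocytes on the air side of the alveolus. They take up inhaled particles and bacteria and break down spent surfactant. GM-CSF made by the alveolar epithelium signals through a receptor that contains the CSF2RB chain and induces PPARG, a lipid-sensing nuclear receptor that establishes the lipid-handling program of these cells. In a bulk lung library, fewer cells of a type and less of the RNA per cell cannot be told apart.

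Of the 10 genes, 0 were higher and 4 were lower in hyperoxia at an adjusted p under 0.05, and 6 did not pass (edgeR quasi-likelihood test with Benjamini-Hochberg adjustment over all genes tested). Of all genes tested, 11.8% were higher and 10.8% lower. The median log2 fold change of the 10 genes was −0.18, and that of all genes −0.03. In 3 genes each hyperoxic library lay below each normoxic library, where 5.23% of all genes did so, and in 0 genes did each lie above, where 5.60% did. Without hyperoxia 1, 1 gene was higher (Chil3) and 3 were lower (Ear1, Ear2 and Fabp5), beside 15.2% and 13.3% of all genes. The median was then −0.23. Each of the 10 genes had counts in every library, except that Ear1 had 0 counts in hyperoxia 1, 2 and 6.

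**Figure D1:**
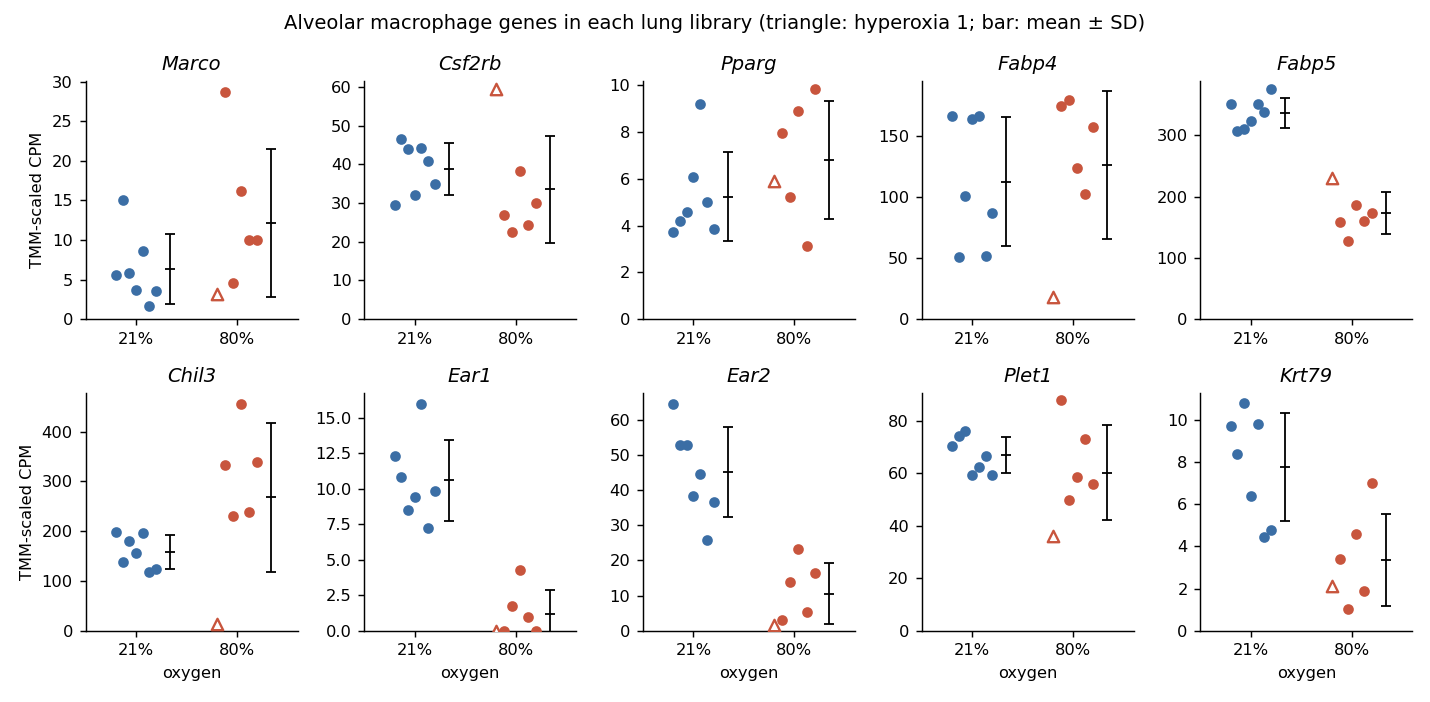
TMM-scaled CPM (vertical axes, from 0) of each of the 10 genes in each library, by oxygen level, with mean ± SD beside the points (n = 7 at 21% and n = 6 at 80%) and hyperoxia 1 drawn as an open triangle. Ear1, Ear2 and Fabp5 separate the groups, while the triangle is the lowest hyperoxic point for Chil3 and Fabp4 and the highest for Csf2rb and Fabp5.

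Ear1 and Ear2 encode eosinophil-associated ribonucleases, small secreted enzymes of the ribonuclease A family that mouse alveolar macrophages also make. They lie on chromosome 14, Ear1 on the minus strand at 43818765 to 43875517 and Ear2 on the plus strand at 44102654 to 44103534 (GRCm38). Of the annotated Ear1 transcripts, Ear1-201 starts at 43819639 and a longer one at 43875517. The 250 bases before the starts of Ear1-201 and of Ear2 are shown because they are nearly the same sequence and both genes fell. Capitals mark the bases that differ or have no partner in the other window (RefSeq, GRCm38.p6; Ear1 chr14:43819640-43819889, minus strand; Ear2 chr14:44102404-44102653, plus strand; both written 5′ to 3′ toward the start site).
Ear1: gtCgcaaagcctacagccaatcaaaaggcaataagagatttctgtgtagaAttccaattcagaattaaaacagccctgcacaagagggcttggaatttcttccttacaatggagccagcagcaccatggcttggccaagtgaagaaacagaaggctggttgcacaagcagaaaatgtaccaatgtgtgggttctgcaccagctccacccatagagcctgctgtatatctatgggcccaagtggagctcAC
Ear2: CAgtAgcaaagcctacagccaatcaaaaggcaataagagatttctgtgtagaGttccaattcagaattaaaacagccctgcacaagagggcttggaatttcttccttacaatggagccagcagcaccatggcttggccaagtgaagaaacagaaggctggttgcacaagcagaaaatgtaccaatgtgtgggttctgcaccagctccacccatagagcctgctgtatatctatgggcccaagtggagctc
The windows are offset by a few bases. Of 248 aligned positions 246 were identical (99.2%). The transcripts resemble each other as well. Among the 31-base words of the last 400 bases, which Quant-seq reads, 80.0% of those of Ear1 and 47.6% of those of Ear2 occur in another annotated transcript, and 42.7% are common to both genes. How the counts were divided between Ear1 and Ear2 is therefore uncertain. In the annotation Ear1 also overlaps the pseudogenes Ear-ps12 and Ear-ps9 on its own strand, and Ear2 overlaps Gm49101 on the other strand.

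Ear2 had 25.9, 44.7 and 64.6 CPM as the lowest, median and highest of the 7 normoxic libraries, and 1.61, 9.61 and 23.2 CPM in the 6 hyperoxic libraries. The highest hyperoxic library lay below the lowest normoxic one. The means were 45.1 ± 12.8 CPM for the normoxic libraries (SD, n = 7) and 10.6 ± 8.58 CPM for the hyperoxic ones (SD, n = 6), a log2 fold change of −2.04 (standard error 0.43, adjusted p = 0.00318, edgeR quasi-likelihood test). Ear1 had 7.25, 9.81 and 15.9 CPM in normoxia and 0, 0.469 and 4.31 CPM in hyperoxia. In 4 of the 6 hyperoxic libraries it had at most 3 counts, whereas the normoxic libraries had 26 to 33 counts. Its log2 fold change was −3.03 (standard error 0.61, adjusted p = 0.00221), a value that rests on the few hyperoxic counts. Ear1 and Ear2 stayed below the threshold in each of the 13 fits that left out 1 library. Without hyperoxia 1 the log2 fold changes were −2.83 and −1.82 (adjusted p = 0.00151 and 0.00127). With the counts of Ear1, Ear2, Ear6 and Ear10 added up, so that their division does not matter, the sum ran from 99 to 206 counts in normoxia and from 3 to 107 in hyperoxia, and its log2 fold change was −2.07 (standard error 0.42, adjusted p = 0.00227). This sum was chosen after the values were seen. Ear10 had 0 counts in every library, and Ear6 had at most 1 count in normoxia and at most 7 in hyperoxia.

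The library names carry letters, which run from B to M (5 normoxic, 3 hyperoxic) and from O to S (2 normoxic, 3 hyperoxic), and what these stand for is not given in the sources used here. The difference in mean log2 CPM was −3.35 for Ear2 within B to M and −1.23 within O to S, and for Ear1 it was −3.53 and −2.38. Both genes are named after eosinophils. The eosinophil, basophil and mast cell markers added up to 2.45 to 8.92 CPM in normoxia and 2.42 to 6.42 CPM in hyperoxia, and 0 of the 9 passed the filter. Of these markers, Prg2 and Epx, which encode granule proteins of eosinophils, had 0 counts among 39122256, which allows up to 0.0767 CPM. Il5ra, from the same list, had counts in every library, with 1.23 to 5.05 CPM in normoxia and 0.808 to 3.40 CPM in hyperoxia. Without hyperoxia 1, 1 gene of the list was tested (log2 fold change −1.01), and it did not pass. The part of eosinophils in the Ear1 and Ear2 values was not tested.

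Fabp5 and Fabp4 encode fatty acid binding proteins, cytosolic carriers of fatty acids, and both are also expressed outside macrophages, Fabp4 in capillary endothelium and adipocytes and Fabp5 in epithelia and endothelium. Both are on chromosome 3, Fabp5 at 10012548 to 10016607 on the plus strand and Fabp4 at 10204088 to 10208576 on the minus strand. Fabp5 had 307, 338 and 376 CPM as the lowest, median and highest normoxic values and 127, 167 and 230.0 CPM in hyperoxia. The groups did not overlap, and hyperoxia 1 was the highest of the hyperoxic libraries, opposite to its place for Ear2. The normoxic mean was 337 ± 24.6 CPM (SD, n = 7) and the hyperoxic mean 173 ± 34.4 CPM (SD, n = 6), and Fabp5 fell by 0.97 on the log2 scale (standard error 0.14, adjusted p = 0.000156, edgeR quasi-likelihood test). The change was −0.98 within letters B to M and −1.04 within O to S. It passed in each of the 13 fits that left out 1 library and was −1.05 without hyperoxia 1. No 31-base word of its last 400 bases occurs in another gene's transcript, although 33.1% of those of the whole transcript do, mostly in related loci such as Gm6166.

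Fabp4 did not follow Fabp5. It had 50.7, 101 and 166 CPM in normoxia and 18.2, 140.4 and 179 CPM in hyperoxia, and the groups overlapped. The lowest value was that of hyperoxia 1, and the other hyperoxic libraries had at least 102 CPM. Its log2 fold change was 0.17 (95% interval −0.69 to 1.04, adjusted p = 0.804, edgeR quasi-likelihood test), or 0.41 (−0.20 to 1.03, adjusted p = 0.309) without hyperoxia 1, and −0.044 (adjusted p = 0.959) when limma was run on the authors' log CPM. Within letters B to M the difference was −0.50, or 0.58 without hyperoxia 1, and within O to S it was 0.91. The ratio of Fabp4 to Fabp5 CPM within a library, a measure chosen after the values were seen, was 0.152 to 0.506 in normoxia, 0.0793 in hyperoxia 1 and 0.639 to 1.41 in the other hyperoxic libraries. Beside these values, adipocyte markers added up to 88.4 to 232 CPM in normoxia and 75.0 to 153 CPM in hyperoxia, and of 7 tested 1 fell, Retn, which encodes resistin (log2 fold change −1.34). Endothelial markers added up to 3072 to 5343 CPM and 1287 to 5010 CPM, and of 10 tested 0 rose and 5 fell (1 and 6 without hyperoxia 1), among them Gpihbp1, which anchors lipoprotein lipase in capillaries (−1.53). Most of the normoxic endothelial sum was Pecam1, with 1760 to 3978 CPM in normoxia and 392 to 3873 CPM in hyperoxia. The part of adipocytes and endothelium in the Fabp4 and Fabp5 values was not tested.

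Chil3 encodes Ym1, a secreted chitinase-like protein that is abundant in mouse alveolar macrophages, and lies on chromosome 3 at 106147554 to 106167564 on the minus strand. It had 118, 155 and 199 CPM in normoxia and 13.9, 285 and 456 CPM in hyperoxia. The value of 13.9 CPM was that of hyperoxia 1, below each normoxic library, and the other 5 hyperoxic libraries, with 229.7 CPM or more, lay above each normoxic library. Over all libraries the log2 fold change was 0.76 (standard error 0.44, 95% interval −0.17 to 1.69, adjusted p = 0.235, edgeR quasi-likelihood test). Without hyperoxia 1 it was 1.02 (standard error 0.18, adjusted p = 0.000519). Within letters B to M the difference was −0.74 with hyperoxia 1 and 0.68 without it, and within O to S it was 1.46.

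Of the 31-base words of the Chil3 transcript 44.8% occur in other transcripts, first of all in that of its near copy Chil4, but 2.43% of those of the last 400 bases do. Chil4 itself had from 0 to 204 counts and did not pass the filter. With both genes added up, a sum chosen after the values were seen, the log2 fold change was 0.67 (adjusted p = 0.300), and 0.92 (adjusted p = 0.00228) without hyperoxia 1. Apart from hyperoxia 1, each hyperoxic library lay above the normoxic ones for Chil3 and below them for Ear2. Within the groups, the deviations of Chil3 and Ear2 from the group means correlated positively (Pearson 0.71 over 13 libraries, 0.47 without hyperoxia 1). The number of Chil3 counts per Ear2 count, also chosen after the values were seen, was 2.63 to 4.55 in normoxia (median 3.39) and 8.67 to 110.0 in hyperoxia (median 20.2). The lowest hyperoxic ratio was that of hyperoxia 1, which had 26 counts of Chil3 and 3 of Ear2.

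**Figure D2:**
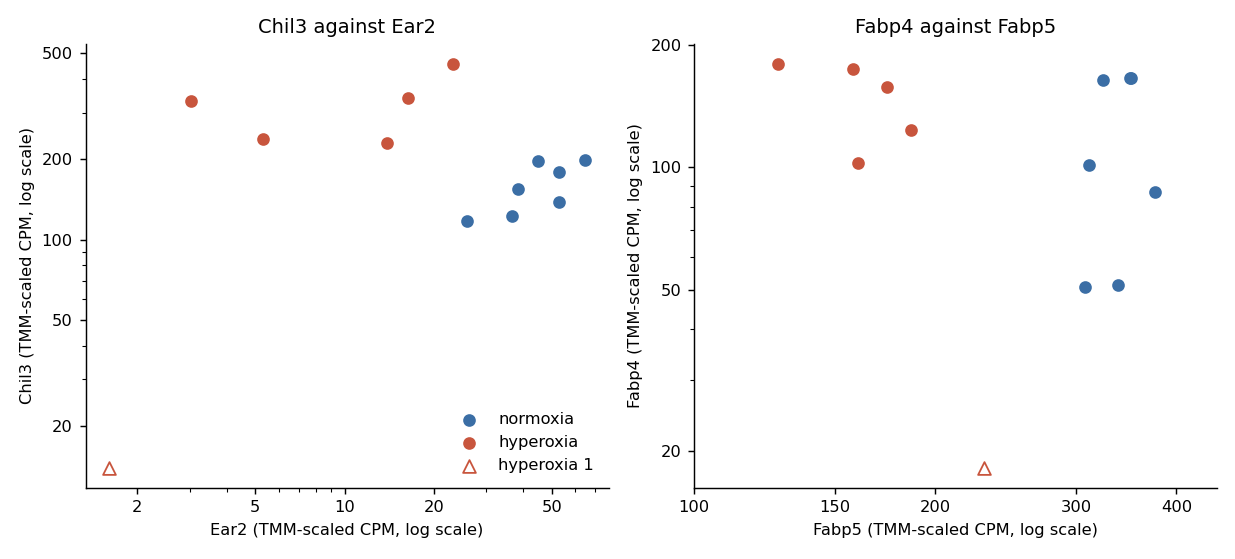
Chil3 against Ear2 (left) and Fabp4 against Fabp5 (right) in TMM-scaled CPM on log axes, 1 point per library, 7 normoxic and 6 hyperoxic with hyperoxia 1 as an open triangle. All hyperoxic points, the triangle included, lie to the left of the normoxic points in both panels, and all but the triangle lie above them for Chil3.

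Marco, a class A scavenger receptor that binds bacteria and particles (chromosome 1, 120474538 to 120505024, minus strand), had 1.67, 5.60 and 15.02 CPM in normoxia and 3.22, 10.03 and 28.7 CPM in hyperoxia. The groups overlapped, with 2 hyperoxic libraries above each normoxic one. The log2 fold change was 0.98 (standard error 0.50, 95% interval −0.09 to 2.05, adjusted p = 0.183, edgeR quasi-likelihood test). Without hyperoxia 1 it was 1.18 (0.19 to 2.16, adjusted p = 0.0688), and 1.55 (adjusted p = 0.0216) when the letter set was added to that fit. The difference was 0.14 within letters B to M, or 0.69 without hyperoxia 1, and 1.98 within O to S. Marco had 6 to 76 counts per library.

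Csf2rb, the signalling chain shared by the receptors for GM-CSF, IL-3 and IL-5 (chromosome 15, 78325752 to 78353847, plus strand), had 29.5, 41.0 and 46.5 CPM in normoxia and 22.6, 28.4 and 59.5 CPM in hyperoxia. The highest value was that of hyperoxia 1, while 3 hyperoxic libraries lay below each normoxic one. Its log2 fold change was −0.22 (95% interval −0.68 to 0.25, adjusted p = 0.524, edgeR quasi-likelihood test) and −0.43 (−0.78 to −0.08, adjusted p = 0.0642) without hyperoxia 1. Of the 31-base words of the whole Csf2rb transcript 29.3% occur in other transcripts, most of them in that of its neighbouring copy Csf2rb2, an IL-3 receptor chain. Of those of the last 400 bases 1.62% do. With both genes added up the log2 fold change was −0.26 (adjusted p = 0.396), and −0.48 (adjusted p = 0.0307) without hyperoxia 1.

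Pparg (chromosome 6, 115360951 to 115490399, plus strand) had 3.73, 4.58 and 9.19 CPM in normoxia and 3.13, 6.92 and 9.84 CPM in hyperoxia, with overlapping groups. The log2 fold change was 0.42 (95% interval −0.23 to 1.07, adjusted p = 0.356, edgeR quasi-likelihood test) and 0.48 (adjusted p = 0.280) without hyperoxia 1. It was 0.22 within letters B to M and 0.51 within O to S. It had 10 to 45 counts per library, and Gm44079 overlaps it on the other strand, so that reads of both may be included. Pparg is also expressed in adipocytes and other lung cells.

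Plet1, a surface protein with a lipid anchor that is found on alveolar macrophages and in some epithelia (chromosome 9, 50494525 to 50505482, plus strand), had 59.2, 66.6 and 76.2 CPM in normoxia and 35.9, 57.3 and 88.0 CPM in hyperoxia. In 4 hyperoxic libraries it was below each normoxic library and in 1 above each. Plet1os overlaps it on the other strand, and reads of both may be included. The SD was 6.86 CPM in normoxia (n = 7) and 18.2 CPM in hyperoxia (n = 6). The log2 fold change was −0.15 (95% interval −0.52 to 0.22, adjusted p = 0.586, edgeR quasi-likelihood test) and −0.03 (−0.34 to 0.28, adjusted p = 0.912) without hyperoxia 1.

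Krt79, a type II keratin used as a marker of mouse alveolar macrophages (chromosome 15, 101929332 to 101940324, minus strand), had 4.46, 8.39 and 10.8 CPM in normoxia and 1.04, 2.77 and 7.00 CPM in hyperoxia. In 4 of the 6 hyperoxic libraries it was below each normoxic library, and the groups overlapped. With means of 7.76 ± 2.56 CPM (SD, n = 7) and 3.34 ± 2.18 CPM (SD, n = 6), its log2 fold change was −1.13 (standard error 0.39, adjusted p = 0.0455, edgeR quasi-likelihood test). This call was kept in 3 of the 13 fits that left out 1 library (normoxia 6, normoxia 7 or hyperoxia 6) and lost in 10, those without normoxia 1 to 5 or hyperoxia 1 to 5, while the log2 fold change stayed between −1.50 and −0.93 in all 13. Without hyperoxia 1 the log2 fold change was −1.03 (adjusted p = 0.0565), and −0.945 (adjusted p = 0.127) when the letter set was added to that fit. With the letter set as a term over all libraries the call was also lost (adjusted p = 0.0825). The difference was −1.83 within letters B to M and −0.17 within O to S. Other keratin genes in the same chromosomal family, Krt6a and Krt75, had 0 counts in every library.

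**Figure D3:**
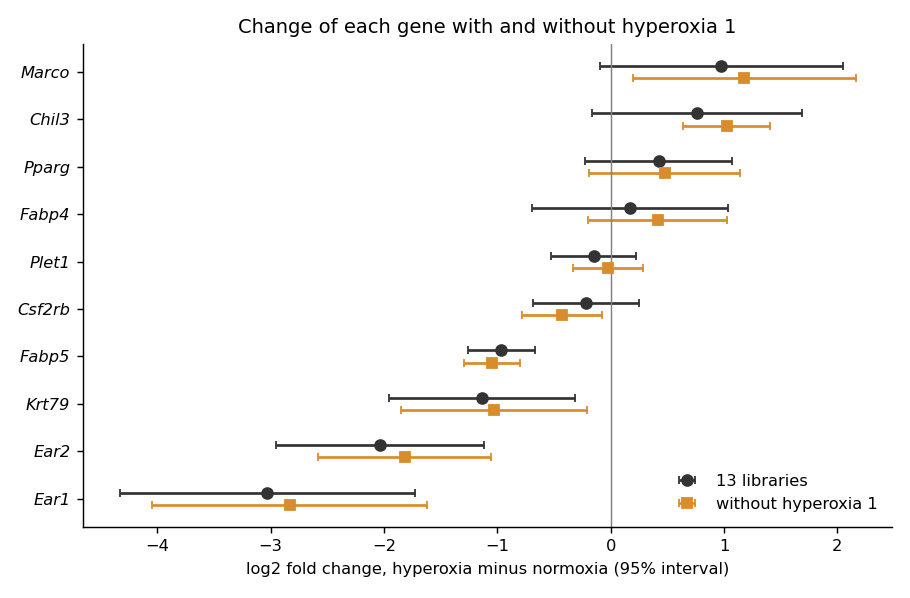
Log2 fold change of each of the 10 genes, hyperoxia minus normoxia (horizontal axis), with its 95% interval from edgeR, over 13 libraries (circles) and without hyperoxia 1 (squares). The intervals of Ear1, Ear2, Fabp5 and Krt79 lie below 0 in both fits, and without hyperoxia 1 those of Chil3 and Marco lie above 0 and that of Csf2rb below 0, of which only Chil3 passed the adjusted threshold.

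The 10 genes did not vary as one unit from library to library. Over the 13 libraries, the Pearson correlation of the deviations from the group means ran from −0.78 (Fabp4 with Csf2rb) to 0.85 (Chil3 with Fabp4) among the 45 pairs, with a median of 0.24. Without hyperoxia 1 the range was −0.59 to 0.83 with a median of 0.23, and Chil3 correlated most with Krt79 (0.83) and Fabp4 with Chil3 at 0.49. These libraries share depth and composition, and no test was made of them. The 10 genes added up to 659 to 911 CPM in normoxia and to 370.5 to 920.0 CPM in hyperoxia, or 619 to 920.0 CPM without hyperoxia 1. A mean profile of the 10 genes was taken from their deviations, each gene's divided by its SD. Among 9564 other genes, those whose deviations correlated most with this profile over 13 libraries were S100a6 (0.95), Yap1 (0.94), Lhfpl2 (0.93), Mrps26 (0.93), Flna (0.92), Oaz1 (0.92), Myl9 (0.91) and Hax1 (0.91). Without hyperoxia 1, S100a6 (0.94) was the only one of these 8 that remained among the first 8.

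A pair of short motifs was sought on both strands of the RefSeq promoter windows, which were given for 7 of the 10 genes. GAGGAA, a core bound by PU.1, the macrophage ETS factor, was in the windows of Marco and Pparg and in 23.3% of all 32851 windows. AGGTCA, the hexamer bound by nuclear receptors such as PPARG, was in those of Pparg and Plet1 and in 14.0% of all windows.

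Around these genes, the GM-CSF, M-CSF and PPARG pathway was represented by 21 genes. Among the 20 tested, 1 was higher and 2 were lower, and the median log2 fold change was −0.20. Klf4, a transcription factor that is also strong in endothelium, rose from 440.1 ± 132 to 712 ± 166 CPM (SD, n = 7 and 6; log2 fold change 0.69, adjusted p = 0.0228, edgeR quasi-likelihood test). Cebpa, a myeloid and epithelial factor, fell by 0.85 (adjusted p = 0.0217), and Maf, a factor of macrophage identity, fell by 0.37 (adjusted p = 0.0453) on the log2 scale. The alpha chain of the GM-CSF receptor, Csf2ra, had 7.08 ± 1.77 and 5.96 ± 3.29 CPM (log2 fold change −0.20, adjusted p = 0.741). Csf1r, the M-CSF receptor of all mononuclear phagocytes, had 186 ± 21.1 and 150.2 ± 102 CPM (−0.31, adjusted p = 0.459), with 357 CPM in hyperoxia 1, and fell by 0.75 without that library (adjusted p = 0.000294). The ligand gene Csf2 itself had at most 2 counts in normoxia and 0 in hyperoxia, at or under the floor. Spi1, which encodes PU.1, had 8.86 ± 4.07 and 8.46 ± 5.79 CPM (−0.09, adjusted p = 0.908). Without hyperoxia 1, 3 genes of the list were higher and 3 lower.

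A wider list of 23 alveolar macrophage genes gave 21 that were tested. Of these, 3 were higher and 5 lower, and the median was −0.21. The genes that rose were Plin2, which coats lipid droplets (log2 fold change 2.14, adjusted p = 8.19e-05, edgeR quasi-likelihood test), Lgals3, a galectin (1.92, adjusted p = 1.21e-06), and Mrc1, the mannose receptor (0.72, adjusted p = 0.00415). Lgals3 had 304 ± 35.8 CPM in normoxia and 1146 ± 283 CPM in hyperoxia (SD, n = 7 and 6). Siglecf, a lectin used as a marker of these cells in the mouse, fell from 12.4 ± 4.65 to 4.82 ± 1.96 CPM (−1.33, adjusted p = 0.00706). Itgax, which encodes CD11c, fell by 1.10 on the log2 scale (adjusted p = 0.0291). Fabp1, the liver-type fatty acid binding protein, had a mean of 8.90 CPM in normoxia and no more than 3 counts in any hyperoxic library. With the floor of 3 counts taken per library, its level was at least 8.63-fold lower in hyperoxia. Abcg1, which exports cholesterol, fell by 1.12 (adjusted p = 0.00278), and Mgll, monoacylglycerol lipase, by 0.71 (adjusted p = 0.0146). Several of these genes, such as Plin2, Lgals3 and Mgll, are expressed in many lung cell types. The part of each cell type in the values of this list, Siglecf and Itgax included, was not tested. Without hyperoxia 1, 5 were higher and 5 lower.

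The list for macrophage lipid handling had 18 genes, all tested, 2 of them higher and 6 lower (8 lower without hyperoxia 1), with a median of −0.26. Besides Plin2, Gpnmb, a glycoprotein of lipid-laden macrophages, rose (log2 fold change 1.62, adjusted p = 0.000261, edgeR quasi-likelihood test), whereas the lipoprotein receptor Scarb1 (−1.20, adjusted p = 0.000436), the cholesterol exporters Abca1 (−0.98, adjusted p = 0.000779) and Abcg1, the apolipoprotein Apoc1 (−1.91, adjusted p = 0.00185), the phospholipid transfer protein Pltp (−1.45) and the fatty acid uptake receptor Cd36 (−0.62) fell. The cholesterol carrier of the lysosome Npc2 (0.21, adjusted p = 0.572) and the apolipoprotein Apoe (−0.25, adjusted p = 0.512) did not pass, although Apoe did without hyperoxia 1 (−0.52, adjusted p = 0.0365).

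**Figure D4:**
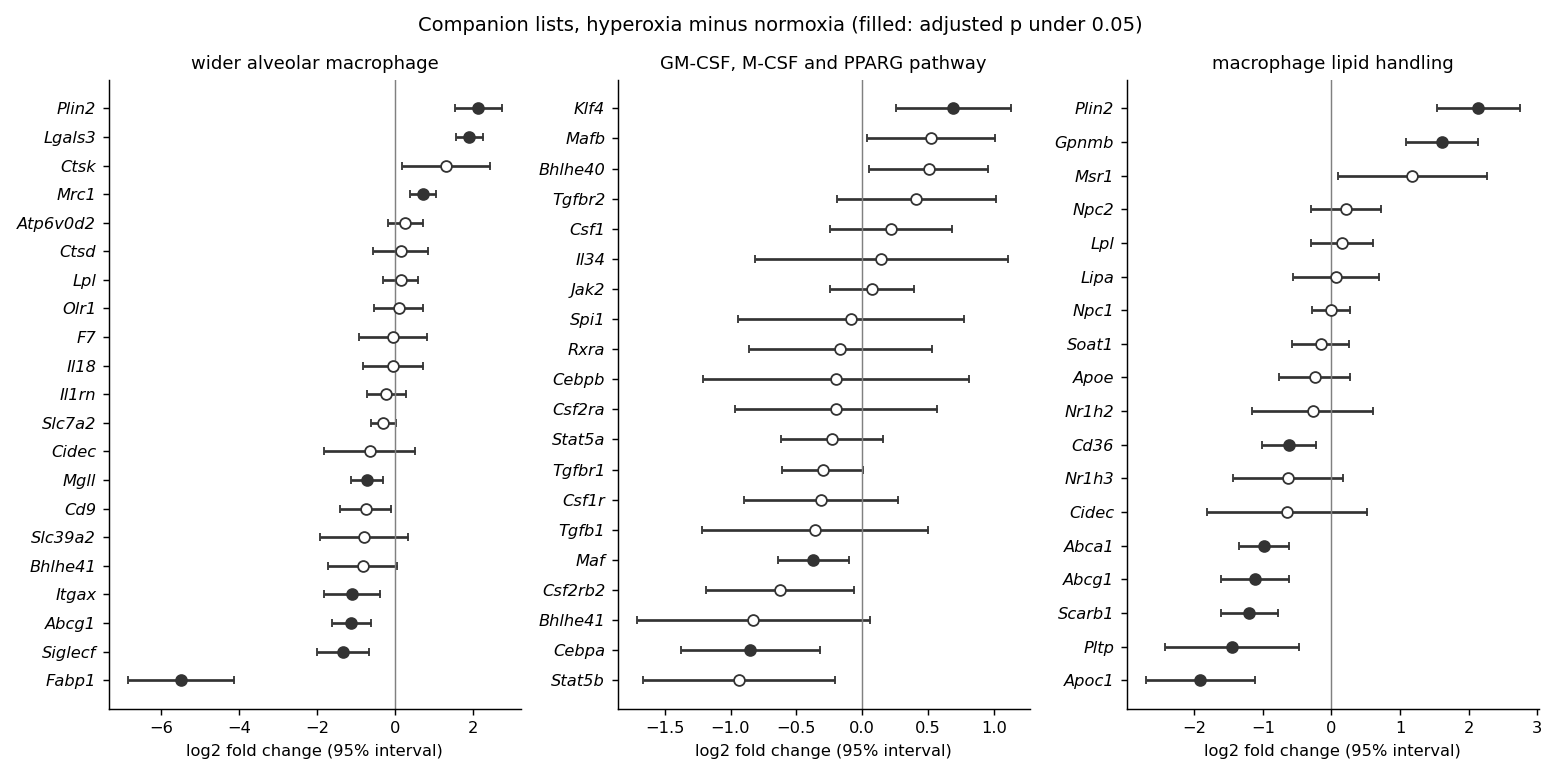
Log2 fold change, hyperoxia minus normoxia (horizontal axes), with 95% intervals from edgeR, for the tested genes of the wider alveolar macrophage list, the GM-CSF, M-CSF and PPARG pathway and macrophage lipid handling; filled points passed an adjusted p under 0.05. In the wider list 3 genes rose and 5 fell, in the pathway 1 rose and 2 fell, and in lipid handling 2 rose and 6 fell.

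Of 22 relatives and paralogs of the 10 genes, 11 were tested, 0 were higher and 5 were lower, and in those 5 the groups did not overlap (5.23% of all genes). Without hyperoxia 1, 12 were tested and Ppard, a nuclear receptor related to Pparg, was higher (1.13, adjusted p = 0.0320, edgeR quasi-likelihood test). The 5 lower genes included 2 further secreted ribonucleases, Rnase4 (704 ± 85.0 and 222 ± 37.0 CPM, SD, n = 7 and 6, log2 fold change −1.66, adjusted p = 1.41e-06, edgeR quasi-likelihood test) and Ang, or angiogenin (−2.67, adjusted p = 0.000339). In the annotation Ang lies within Rnase4 on the same strand, so how the counts were divided between them is uncertain. Chil1, another chitinase-like protein, fell by 1.05 (adjusted p = 0.00149), a call that Chil3 did not share. The others were Fabp1 and Colec12, a scavenger receptor (−0.54, adjusted p = 0.0338). The median of the 11 was −0.64, and Msr1, the class A scavenger receptor related to Marco, had 3.15 ± 2.87 and 6.76 ± 3.03 CPM (1.18, adjusted p = 0.110).

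General macrophage markers were mixed. Of 12 tested, 1 was higher (Mertk, a receptor for apoptotic cells, log2 fold change 0.85) and 2 were lower (Lyz2, lysozyme, −2.27, and Mpeg1, perforin-2, −0.64), or 3 lower without hyperoxia 1. Their sum ran from 2652 to 4511 CPM in normoxia and from 824 to 1841 CPM in hyperoxia. Lyz2, which alveolar epithelium also makes, accounted for most of this difference, with means of 2947 and 609 CPM. Cd68 had 8.07 ± 4.56 and 7.82 ± 4.22 CPM (log2 fold change −0.0044, adjusted p = 0.997, edgeR quasi-likelihood test). Of 11 interstitial macrophage markers tested, 3 were higher and 1 lower, among them Cd163, a hemoglobin scavenger receptor (1.82), and Lyve1, which lymphatic endothelium also expresses (3.14). Ms4a7 passed at 0.76 (adjusted p = 0.0498) but not without hyperoxia 1 (adjusted p = 0.0764), where 2 were higher and 2 lower. The sum ran from 1368 to 2063 CPM in normoxia and from 5131 to 9050.3 CPM in hyperoxia, and this difference lay in Lyve1, with means of 625.3 and 5508 CPM. The other 11 markers of the list added up to 803 to 1154 CPM in normoxia, and to 549 to 961 CPM in hyperoxia, or up to 1395 CPM with hyperoxia 1. Of 7 monocyte markers, 1 was higher (F13a1, 0.96) and 4 were lower, among them Spn (−1.81), Plac8 (−1.69) and Ccr2 (−0.85), with sums of 147 to 206 CPM and 99.7 to 125 CPM. Of 7 neutrophil markers, 1 was higher (Mmp8, 1.95) and 0 lower, with sums of 119.6 to 231 CPM and 64.3 to 320.4 CPM (160.4 CPM or more without hyperoxia 1, where 1 was higher and 1 lower), and Ly6g, their defining gene, had at most 3 counts in any library. Of 8 dendritic cell markers, 0 were higher and 6 lower, among them Clec9a (−1.29), with sums of 111 to 173 CPM and 59.4 to 90.1 CPM. Of 12 epithelial markers, 1 was higher and 3 lower, among them Sftpc (−2.72), or 3 higher and 3 lower without hyperoxia 1. Of 9 proliferation genes, 1 was higher (Ccna2, 0.78) and 0 lower. The part of these cell types in the values of the 10 genes was not tested.

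The companion lists together held 178 genes besides the 10. Of the 142 tested, 13 were higher and 37 lower, beside 11.8% and 10.8% of all genes. Of these calls, 17 of 50 were lost in at least 1 of the 13 fits that left out a library. Of the genes named, Maf passed in 2 of these 13 fits, Ms4a7 in 3, Mpeg1 in 4, Pltp, Colec12 and Ccna2 in 7, Itgax and Cd36 in 8, Retn in 9, and Cebpa and Mgll in 10. In the fit without hyperoxia 1, 20 of the companion genes were higher and 43 lower. The shares of all genes also rose in that fit, to 15.2% higher and 13.3% lower. Maf no longer passed in it (adjusted p = 0.0612, edgeR quasi-likelihood test).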

How the data were processed

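Lung RNA from 7 normoxic and 6 hyperoxic samples had been read by Quant-seq. The authors ran kallisto through BioJupies and deposited raw counts, whole numbers for each gene symbol. They also deposited log10 values, which are log10 of CPM plus 1. Per the submitters' processing notes, the build was mm10 and limma 3.54.2 was among the tools. The strand setting is not given in the sources used here, so reads of overlapping genes on opposite strands cannot be told apart. The authors' log10 values were used only in 1 alternative.

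Groups came from the sample titles, and 0 columns were left unmapped. Counts were tested with edgeR 4.0.16 in R 4.3.3 (filterByExpr, TMM scaling, glmQLFit and glmQLFTest, Benjamini-Hochberg adjustment, threshold 0.05) over 12496 genes and all 13 libraries. CPM values are TMM-scaled, and log2 CPM values carry a prior count of 2. The fits were tested on simulated data whose spread between libraries was smaller than that of these libraries. Alternatives were DESeq2 1.42.0, limma-voom (limma 3.58.1), limma on the log10 values put on a log2 scale, library size only, filters on low counts of none and of 10 counts per library, a replicate block, a term for the letter set, a log2 fold change over 1.5 as well, and the omission of each library in turn. Sums over paralogs and the letter set together with the omission of hyperoxia 1 were added after seeing the data. Coordinates and transcripts are from GENCODE on GRCm38.

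The 10 genes and all lists were chosen with earlier results of these data known. The naming rule covered the 10 genes, any gene of the pathway and paralog lists, of each other list up to 4 genes lowest in adjusted p and the one highest in mean CPM, and 8 genes by likeness among those with a mean of at least 10 CPM. Not every gene it covered is named. Siglecf, Itgax, Mrc1, Mgll, Cd36, Apoc1, Pltp, Cd68, Apoe, Ly6g, Prg2, Epx, Il5ra, Epcam and Cdh1 were named after their values were seen.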

Additional observations from a re-analysis of the deposited data

Results flagged for a closer look

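Among the CPM values of the 10 genes in the 2 groups, 20 sets of libraries in all, 1 had a library far from the others. Pparg was at 9.19 CPM in normoxia 5, the shallowest library, and the nearest other normoxic library had 6.06 CPM, a gap of 0.574 of the range of the group. Chance gives about 1 in 20 such cases.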

How the results depend on the processing

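The 10 genes, and the sums of 3 of them with their paralogs, were refitted under each alternative, and 200 values kept their direction and their side of the threshold, 15 lost a call (all for Krt79), 5 gained one and 2 reversed. Of the gains, 2 belonged to sums without hyperoxia 1, Chil3 with Chil4 and Csf2rb with Csf2rb2, and Csf2rb by itself passed under none of these alternatives. The reversals were Fabp4, at −0.044 with limma on the authors' log CPM, and Plet1, at 0.014 with hyperoxia 1 left out and a term for the letter set. A requirement of 10 counts per library left 1 lower gene of the 10, since Ear1, Ear2 and Krt79 were then not tested, and a log2 fold change over 1.5 as well left 2, beside 194 higher and 294 lower of all genes. With 1 library left out, 0 to 1 of the 10 genes were higher and 3 to 4 lower, and among the companion lists 11 to 20 were higher and 27 to 43 lower. The 1 higher gene was Chil3 and the 20 companion genes were those without hyperoxia 1, where 15.2% of all genes were higher and 13.3% lower. With the replicate block, 718 of all genes were higher and 626 lower, of the companion genes 8 and 19, and Krt79 lost its call (adjusted p = 0.133, edgeR quasi-likelihood test), whereas the calls of Ear1, Ear2 and Fabp5 held. The numbers did not pair the libraries, as the correlation of deviations between libraries of the same number ran from −0.33 to 0.27 and 1 of 12 libraries correlated best with their own number. Of the called genes, 52.3% were higher, but 47.9% with limma-voom, 42.7% with library size only and 38.8% with limma on log CPM, which moved the median of all genes to −0.16. The cause of these changes was not tested. Marco, Pparg and Krt79 had 3 to 76 counts per library and Ear1 had 0 to 33, and whether depth limited their calls was not tested.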
